A study of Mus musculus with 4 samples.

Results

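Molecular chaperones are proteins that help other proteins fold, assemble and cross membranes. The genes described here are the cytosolic and endoplasmic reticulum (ER) chaperones and their J-domain partners, measured in the ventricles of newborn mice labelled as lacking Ctnnb1, the β-catenin gene, in cardiomyocytes or as controls. Members were the protein-coding genes whose symbols begin with Hspa, Hspb, Hsp90, Hsph, Dnaja, Dnajb, Dnajc or Cct and a digit, together with Tcp1, Calr, Canx, Pdia3, Pdia4, Pdia6 and P4hb. Hspa9, the mitochondrial HSP70, was left out. This gave 87 of 53465 genes, of which 83 had enough counts to be tested. The annotation used here (GENCODE) calls 86 of the 87 protein-coding, and Cct6a, which it calls a processed transcript, was kept because RefSeq calls it protein-coding.

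The knockout-labelled mice were Ctnnb1 floxP/floxP with an alphaMHC-Cre transgene, whose promoter is active in cardiomyocytes, and the control mice were Ctnnb1 floxP/floxP without Cre, so that both groups carried the floxed alleles. All hearts were taken on postnatal day 1 and polyA RNA of the frozen ventricles was sequenced, with 2 libraries per group. No label states that the libraries of a group came from separate animals, so p-values measure the spread between these libraries. Cre without floxed alleles was not analysed here. The ventricle also holds fibroblasts, endothelial cells, blood cells and other cells in which this Cre is not active, and in such tissue more RNA per cell and more cells of a type cannot be told apart.

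The libraries held 45651797 and 34027143 counts in genes for knockout-labelled 1 and 2, and 43288936 and 44624578 for controls 1 and 2. Ctnnb1 itself was at 527 and 460 CPM (a gene's counts relative to its library's total, scaled between libraries by TMM) in the knockout-labelled pair, against 409 and 434 CPM in the controls (log2 fold change 0.23 ± 0.20 SE, edgeR adjusted p = 0.532). Its count covers the whole gene and all ventricular cells and therefore does not check the labels, and each direction below is that of the libraries labelled knockout. Xist was at 0.180 and 602 CPM in knockout-labelled 1 and 2 and at 0.257 and 0.327 CPM in the controls. The Y-linked Kdm5d had 37.4 and 0 CPM in knockout-labelled 1 and 2 and 41.3 and 42.4 CPM in the controls. By these 2 genes knockout-labelled 2 was female and the other libraries were male. The knockout-labelled pair thus mixed the sexes and came from different animals, while both controls were male. Mitochondrially encoded genes took 10.2% and 14.4% of gene counts in the knockout-labelled pair, against 5.25% and 7.65% in the controls. The 8 cardiomyocyte markers summed to 67315 and 75497 CPM in the knockout-labelled pair and to 55676 and 50955 CPM in the controls, with 4 of the 8 higher in both. The 7 markers of dividing cells summed to 492 and 573 CPM in the knockout-labelled pair and to 202 and 259 CPM in the controls, with 7 of 7 higher in both. The T cell markers summed to 0.406 and 0.609 CPM in the knockout-labelled pair, against 107 CPM in control 1 and 2.37 CPM in control 2. Macrophage markers summed to 49.1 and 50.8 CPM in the knockout-labelled pair and to 93.2 and 73.2 CPM in the controls, red cell markers to 699 and 585 CPM against 958 and 992 CPM, and mural cell markers to 405 and 400 CPM against 470 and 489 CPM, and in these lists 3 of 4, 3 of 4 and 3 of 5 genes were lower in both. Atrial markers summed to 1433 and 1615 CPM in the knockout-labelled pair and to 1570 and 2649 CPM in the controls, with 2 of 4 lower in both. Of the fibroblast markers 1 of 6 was higher in both, of the endothelial markers 1 of 5 was lower in both, and both epicardial markers overlapped. Beside these counts, 24.9% of the protein-coding genes tested were higher in both and 30.2% were lower in both. The part these differences between the libraries had in the chaperone values was not tested.

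HSP70 proteins bind exposed stretches of unfolded clients in a cycle driven by ATP: J proteins bring clients and start hydrolysis, and HSP110 proteins are the exchange factors that release the nucleotide. HSP90 acts later on kinases, receptors and other nearly folded clients, and the ring-shaped chaperonin TRiC encloses actin, tubulin and other new chains. In the ER the HSP70 is BiP and the HSP90 is GRP94, and calnexin, calreticulin and the protein disulfide isomerases fold glycoproteins. Cardiomyocytes depend on this machinery to build and maintain sarcomeres.

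No chaperone gene passed edgeR's quasi-likelihood test at an adjusted p under 0.05, and the smallest adjusted p was 0.0925, for Hsp90aa1. Over all 18157 genes tested, 0.011% passed in either direction, so this test called almost nothing in these 4 libraries. limma-voom called 0 members too. At an unadjusted p under 0.05 in edgeR, 16 of the 83 members were higher in the knockout-labelled pair and 1 was lower, shares of 19.3% and 1.2%. The same rule took 11.8% of all genes as higher and 11.2% as lower. DESeq2 called 8 members higher and 0 lower of the 79 to which it gave an adjusted p, a share of 10.1% higher, beside 5.58% of all genes higher and 4.43% lower. Those 8 were Hsp90aa1, Hspa4, Tcp1, Cct6a, Cct8, Dnajc9, Dnajc15 and Pdia3. Without control 1 DESeq2 called 0 of the members, and without control 2 it also called 0, although it then still called 157 and 521 genes in all. It called 15 members without knockout-labelled 1 and 6 without knockout-labelled 2. In the authors' deposited table, made with DESeq2, 9 of 79 members had an adjusted p under 0.05, all with a positive log2 fold change, the ninth being Dnajb4 at 0.04998.

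Most members whose groups did not overlap were higher in the knockout-labelled pair. Both libraries labelled knockout lay above both controls for 44 of the 83 members (53.0%) and below both for 10 (12.0%), and the libraries overlapped for 29. Among the 14565 protein-coding genes tested, 24.9% were higher in both and 30.2% were lower in both. The median log2 fold change was 0.23 over the members, -0.02 over all genes and -0.03 over protein-coding genes. When libraries were scaled by their totals alone, without TMM, the median of all genes moved by -0.24, the members' median became -0.02, and the members higher in both and lower in both were 20 each. Relative to all genes the members' median was 0.25 higher with TMM and 0.24 higher with library totals. Leaving out knockout-labelled 1 put it 0.36 above that of all genes, and leaving out knockout-labelled 2 put it 0.18 above. All values below use TMM. With library totals alone 21 members changed sign, all with a TMM-scaled log2 change between 0.00 and 0.25, and the 20 members still higher in both included Hsp90aa1, Hspa4, Pdia3, Dnajb4, Dnajc9, Dnajc15, Tcp1, Cct3, Cct6a and Cct8.

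As a share of all gene counts the members took 1.12% in each knockout-labelled library, against 1.13% and 1.09% in controls 1 and 2. The difference was 0.00398 percentage points, and an exact two-sided permutation test gave p = 1, where 2 libraries against 2 cannot give a p below 0.333. With mitochondrially encoded genes left out of the total, a choice made after the values were seen, the shares were 1.24% and 1.30% in the knockout-labelled pair and 1.19% in each control (exact permutation p = 0.333). The libraries of the groups overlapped in the share of all gene counts and not in the share of nuclear gene counts.

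**Figure D1:**
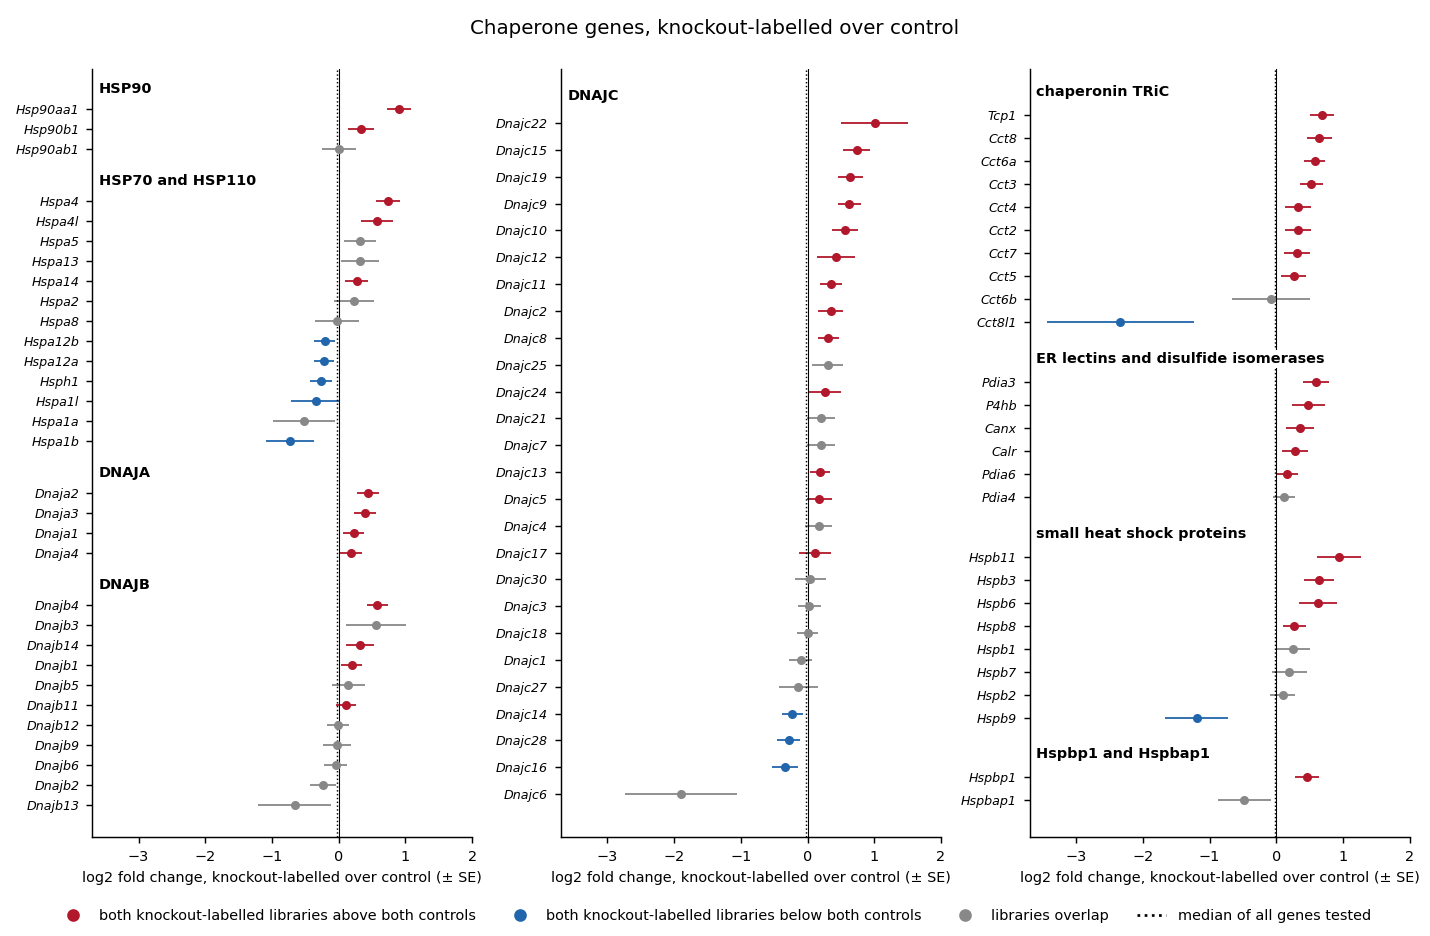
log2 fold change of each of the 83 tested chaperone genes, knockout-labelled over control, with its standard error from edgeR (2 libraries per group), by class. Red marks the 44 genes for which both libraries labelled knockout lay above both controls, blue the 10 for which both lay below, grey the 29 that overlap, and the dotted line is the median of all genes tested (-0.02).

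The 3 HSP90 genes differed from each other. Hsp90aa1, which encodes the inducible cytosolic HSP90 alpha (chromosome 12, 110690605 to 110702728, reverse strand, GRCm38), was at 262 and 305 CPM in the knockout-labelled pair and at 144 and 158 CPM in the controls. Both libraries labelled knockout lay well above both controls. Its log2 fold change was 0.91 ± 0.19 (SE), with an adjusted p of 0.0925 in edgeR and 0.000572 in DESeq2, and it stayed between 0.80 and 1.06 when any 1 library was left out. With DESeq2 it was the only member called once the replicate number was a block (adjusted p = 0.0208). Hsp90ab1, the constitutive cytosolic HSP90 beta, had 1409 and 1498 CPM in the knockout-labelled pair and 1619 and 1282 CPM in the controls. Its libraries overlapped, and the log2 fold change was 0.00 ± 0.25 (SE, edgeR adjusted p = 0.997).

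Per kb of transcript, Hsp90aa1 therefore ran at 0.143 and 0.156 times the level of Hsp90ab1 in the knockout-labelled pair, against 0.0685 and 0.0946 times in the controls. This ratio within a library does not depend on the scaling between libraries, and it did not overlap between the groups. Near-identical copies bear on the value: 68.7% of the Hsp90aa1 transcript has a match of at least 95% identity in another gene, among them 3 pseudogenes. Those pseudogenes were counted at 8.08 and 8.76 CPM in the knockout-labelled pair and at 2.42 and 2.23 CPM in the controls, which is 3.08% and 2.87% of the Hsp90aa1 level against 1.68% and 1.41%. Reads placed at more than 1 site made up 23.9% and 29.7% of counted reads in the knockout-labelled pair and 19.4% and 21.0% in the controls. Whether such reads moved the Hsp90aa1 value was not tested.

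Among the 13 HSP70 and HSP110 genes 3 were higher in both libraries labelled knockout, 5 were lower in both and 5 overlapped, with a median log2 fold change of -0.02, or 0.18 with trends in GC content and length removed, 0.12 without knockout-labelled 1 and -0.18 without knockout-labelled 2. These counts were near the shares of protein-coding genes tested, of which 24.9% were higher in both and 30.2% were lower in both. The 3 members of this class higher in both were Hspa4, Hspa4l and Hspa14. Hspa4 encodes an HSP110-type exchange factor (chromosome 11, 53259814 to 53300457, reverse strand). It was at 248 and 282 CPM in the knockout-labelled pair, against 152 and 164 CPM in the controls. The groups did not overlap, and the log2 fold change was 0.74 ± 0.18 (SE, edgeR adjusted p = 0.107 and 0.00516 in DESeq2). Hspa4l, its close relative, had 70.4 and 54.3 CPM in the knockout-labelled pair and 34.1 and 50.03 CPM in the controls, so that knockout-labelled 2 lay just above control 2.

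Hsph1, the third HSP110 gene and one induced by heat, lay the other way. It was at 23.1 and 25.7 CPM in the knockout-labelled pair and at 28.05 and 30.5 CPM in the controls, with a log2 fold change of -0.26 ± 0.17 (SE, edgeR adjusted p = 0.396). Per kb, Hspa4 stood at 8.83 and 9.03 times the level of Hsph1 in the knockout-labelled pair, against 4.45 and 4.44 times in the controls. The ratio was about the same in the libraries of a group and differed between the groups, and no test was run on it.

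Hspa8, the constitutive cytosolic HSC70, was the most abundant HSP70 gene per kb. It had 893 and 1569 CPM in knockout-labelled 1 and 2, and 1342 and 1156 CPM in the controls. The knockout-labelled libraries lay on either side of the controls, and the log2 fold change was -0.02 ± 0.33 (SE, edgeR adjusted p = 0.978), or 0.38 without knockout-labelled 1. Of the Hspa8 transcript 62.2% has a match of at least 95% identity in another gene, among them 8 pseudogenes. Whether reads placed at more than 1 site moved the Hspa8 value was not tested. The stress-inducible Hspa1b was almost silent, at 1.35 and 1.15 CPM in the knockout-labelled pair and 2.21 and 1.96 CPM in the controls (log2 fold change -0.73 ± 0.36 SE, edgeR adjusted p = 0.276). Its neighbour Hspa1a was at 0.406 and 0.744 CPM in the knockout-labelled pair and 0.708 and 0.920 CPM in the controls. These 2 genes match each other over 74.0% and 78.5% of their transcripts (Hspa1a and Hspa1b), so their reads can be exchanged between them and their separate values are uncertain. Hspa12a, Hspa12b and Hspa1l were the other genes lower in both, with log2 fold changes of -0.22, -0.21 and -0.35. With trends in GC content and length removed, Hspa12a was at 0.01 and Hspa12b at 0.18, on the other side of 0, while Hspa1l was at -0.18, Hspa1b at -0.35 and Hsph1 at -0.12.

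**Figure D2:**
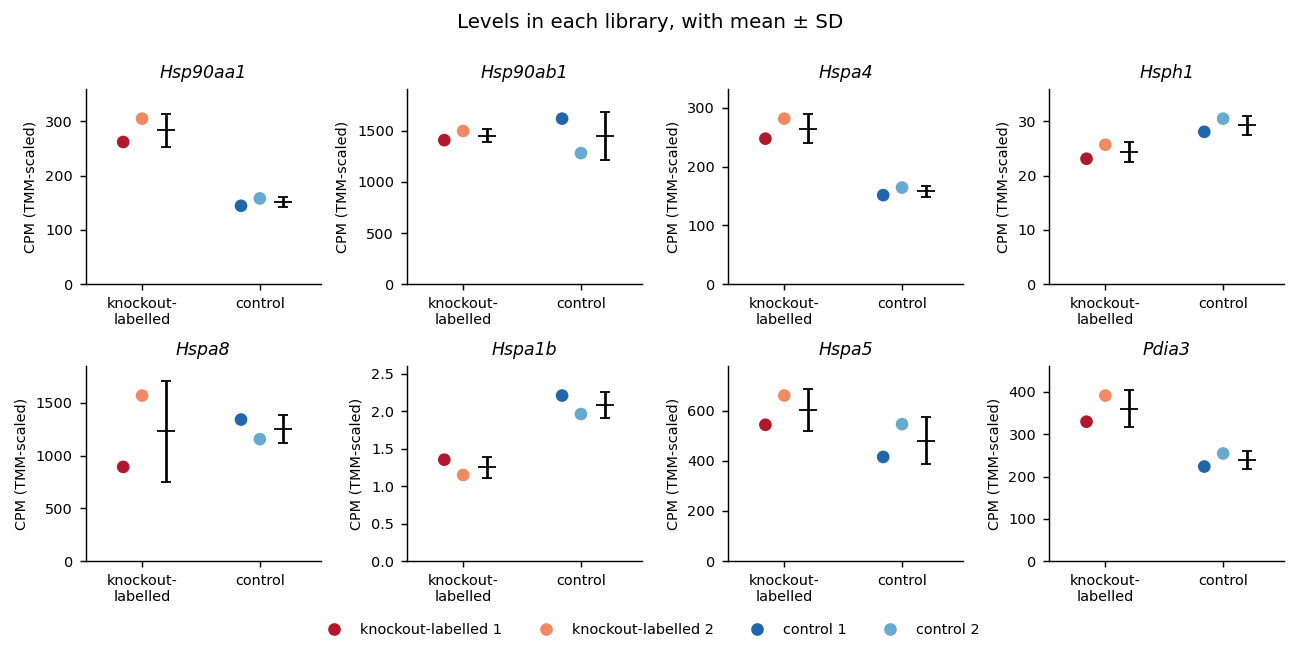
TMM-scaled CPM of 8 chaperone genes in each of the 4 libraries (points), with the mean and SD of each group (bars, n = 2), on axes that start at 0. Hsp90aa1, Hspa4 and Pdia3 are higher in both libraries labelled knockout, Hsph1 and Hspa1b are lower in both, and Hsp90ab1, Hspa8 and Hspa5 overlap.

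The classical heat-inducible cytosolic genes, taken as a list of 10, did not share a direction: 4 were higher in both libraries labelled knockout, 2 were lower in both, and the median log2 fold change was 0.10 (2 higher, 4 lower and -0.14 with library totals alone). The median was 0.27 without knockout-labelled 1, -0.06 without knockout-labelled 2, 0.16 without control 1 and 0.01 without control 2, so its sign rests on single libraries. The 4 were Hsp90aa1, Dnaja1, Dnajb1 and Dnajb4, and the 2 were Hsph1 and Hspa1b. Of the protein-coding genes tested, 24.9% were higher in both and 30.2% were lower in both. Heat shock factors bind repeats of the unit NGAAN, and the shortest pairs of facing units read GAANNTTC or TTCNNGAA. Each of these pairs reads the same on both strands. Of the 7 genes of this list with a promoter in the RefSeq table, 6 held such a pair in the 250 bases before to 50 after the start, a share of 85.7%, beside 24.7% of the 73 members with a promoter and 17.0% of all 27025 genes. A match of these letters is a description and not a bound site. The sequences below show in capitals the pairs that lie before the start in all 6 heat-inducible members that held such a pair. Hsp90aa1, Hsp90ab1 and Hspa8 had no promoter in that table and are therefore absent. They are printed 5′ to 3′ in the gene's direction with 15 bases on either side, or fewer at the start site, from RefSeq on GRCm38.p6.
Hspa1a, chr17:34972238-34972275, reverse strand: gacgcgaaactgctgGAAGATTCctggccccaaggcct
Hspa1b, chr17:34959320-34959357, reverse strand: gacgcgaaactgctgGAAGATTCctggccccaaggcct
Hsph1, chr5:149636347-149636384, reverse strand: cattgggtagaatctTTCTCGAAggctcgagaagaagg
Hspb1, chr5:135887787-135887844, forward strand: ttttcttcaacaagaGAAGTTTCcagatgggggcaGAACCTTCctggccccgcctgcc
Dnaja1, chr4:40722329-40722366, forward strand: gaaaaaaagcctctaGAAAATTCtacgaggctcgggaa
Dnajb4, chr3:152193846-152193874, reverse strand: ttcgttcgttcgctgTTCTAGAAagtaca

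The stretches of Hspa1a and Hspa1b are the same base for base, as are large parts of their transcripts. Genes with a pair of units were found on both sides of 0: Dnajb4 had a log2 fold change of 0.58, Hspb1 of 0.25 and Dnaja1 of 0.22, against -0.26 for Hsph1, -0.52 for Hspa1a and -0.73 for Hspa1b. Hspa1a and Hspa1b were almost silent and their separate values are uncertain, as said above. Over the 17 tested members with a pair, 10 were higher in both libraries labelled knockout, 3 were lower in both and the median log2 fold change was 0.25. Over all 83 tested members, with or without a pair, 53.0% were higher in both, 12.0% were lower in both and the median was 0.23. The members with a pair were thus close to the members as a whole.

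The J proteins, which bring clients to HSP70, made up 45 of the members, and 41 were tested. Of these 21 were higher in both libraries labelled knockout and 3 were lower in both, with a median log2 fold change of 0.19 (-0.06 with library totals alone). The shares of protein-coding genes tested were 24.9% higher in both and 30.2% lower in both. All 4 DNAJA genes were higher in both. Dnaja2, the most abundant of them per kb and a general cytosolic partner of HSC70, was at 207 and 205 CPM in the knockout-labelled pair and at 149 and 156 CPM in the controls (log2 fold change 0.44 ± 0.17 SE, edgeR adjusted p = 0.192). Dnaja3, the mitochondrial member of the class, had 114 and 127 CPM in the knockout-labelled pair and 95.7 and 87.9 CPM in the controls. Dnaja1 had 98.1 and 94.5 CPM in the knockout-labelled pair and 77.6 and 87.4 CPM in the controls, a difference that library totals alone reduced to a log2 change of -0.02.

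Of the 13 DNAJB genes 11 were tested and 4 were higher in both, beside 24.9% of the protein-coding genes tested. The median of the class was 0.11 (-0.13 with library totals alone and 0.29 with trends in GC content and length removed). Dnajb4 (chromosome 3, 152178511 to 152210302, reverse strand), a cytosolic J protein abundant in heart and muscle, was at 71.9 and 74.0 CPM in the knockout-labelled pair and at 45.2 and 52.5 CPM in the controls. The groups were well apart, with a log2 fold change of 0.58 ± 0.16 (SE, edgeR adjusted p = 0.125 and 0.0508 in DESeq2). Dnajb14, of the ER membrane, had 24.8 and 20.8 CPM in the knockout-labelled pair and 16.2 and 20.4 CPM in the controls. Dnajb11, the ER J protein ERdj3, had 78.6 and 70.9 CPM in the knockout-labelled pair and 68.6 and 70.4 CPM in the controls, the highest level per kb in the class and nearly level between the groups. Dnajb3, a gene of low expression, was at 1.31 and 0.744 CPM in the knockout-labelled pair and 0.6004 and 0.797 CPM in the controls, which overlap. Dnajb7 had 2 to 4 counts in every library and Dnajb8 had 2 counts in knockout-labelled 1 and none elsewhere, so neither was tested.

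DNAJC, the most varied class, has 28 genes, of which 26 were tested. Of these 13 were higher in both libraries labelled knockout, beside 24.9% of the protein-coding genes tested. Lower in both were 3 of the class (Dnajc14, Dnajc16 and Dnajc28), beside 30.2%. The median log2 change was 0.19, or -0.05 with library totals alone and 0.41 without knockout-labelled 1, and with trends in GC content and length removed Dnajc14 and Dnajc16 were at -0.11 and -0.10. Dnajc9, a J protein that is also a histone chaperone, was at 31.0 and 28.5 CPM in the knockout-labelled pair and at 19.6 and 18.99 CPM in the controls (log2 fold change 0.63 ± 0.17 SE, edgeR adjusted p = 0.124 and 0.0412 in DESeq2). Dnajc15 was at 74.6 and 106 CPM in the knockout-labelled pair and at 54.7 and 53.7 CPM in the controls (log2 fold change 0.73 ± 0.21 SE, edgeR adjusted p = 0.129 and 0.0385 in DESeq2). Dnajc19 was at 38.7 and 50.6 CPM in the knockout-labelled pair and at 29.0 and 28.2 CPM in the controls. For Dnajc15 and Dnajc19, both of which belong to the motor that pulls proteins into the mitochondrial matrix, the controls lay close together and knockout-labelled 2 was the higher of its pair. The 5 J proteins listed here as mitochondrial had a median log2 fold change of 0.39, with 4 higher in both and Dnajc30 overlapping. This list was set by hand and may not hold every mitochondrial J protein. Dnajc28, lower in both, and Dnajc4, which overlapped, are not on it (log2 fold changes -0.29 and 0.16). The part of the higher mitochondrial share of these libraries in that median was not tested. Dnajc7, the most abundant DNAJC gene per kb, had 166 and 228 CPM in the knockout-labelled pair and 175 and 169 CPM in the controls, which overlap.

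Hspa14 and Dnajc2, which form the ribosome-associated pair that meets new chains as they leave the ribosome, were both higher in both libraries labelled knockout. Hspa14 had 31.8 and 27.7 CPM in the knockout-labelled pair and 23.9 and 25.5 CPM in the controls. Dnajc2 had 43.6 and 57.0 CPM in the knockout-labelled pair and 40.8 and 38.4 CPM in the controls. Neither passed in edgeR (adjusted p = 0.392 and 0.319). The neuronal clathrin uncoating factor Dnajc6 was at 0.564 and 0.372 CPM in the knockout-labelled pair, against 3.02 CPM in control 1 and 0.531 CPM in control 2, so its log2 fold change of -1.90 rests on control 1, the library with the T cell markers. Dnajc5g had no count in any library, which at 3 counts allows up to 0.0657 and 0.0882 CPM in the knockout-labelled pair and 0.0693 and 0.0672 CPM in the controls before TMM scaling. Dnajc5b had 6 and 0 counts in the knockout-labelled pair and 5 and 8 counts in the controls and was not tested.

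All 8 ubiquitous subunits of TRiC stood above both controls in each library labelled knockout with TMM, and with library totals alone 4 of them were (Tcp1, Cct3, Cct6a and Cct8). Their log2 fold changes ran from 0.26 for Cct5 to 0.68 for Tcp1, with a median of 0.42. In edgeR 4 of the 8 had an unadjusted p under 0.05, beside 11.8% of all genes higher by that rule. Of the protein-coding genes tested, 24.9% were higher in both with TMM. The 8 share one ring, in which each subunit has a fixed place. Summed, they reached 1717 and 1987 CPM in the knockout-labelled pair, against 1408 and 1317 CPM in the controls. The median was 0.35 without knockout-labelled 2 and 0.58 without knockout-labelled 1. With library totals alone it was 0.18, which is 0.44 above the median of all genes on that scale and 0.45 above it with TMM. The markers of dividing cells were higher in the same libraries, and their part in these values was not tested.

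Tcp1 (chromosome 17, 12915701 to 12925067, forward strand), the alpha subunit, was at 245 and 287 CPM in the knockout-labelled pair and at 166 and 165 CPM in the controls (log2 fold change 0.68 ± 0.18 SE, edgeR adjusted p = 0.120 and 0.0120 in DESeq2). Cct8, the theta subunit, was at 217 and 269 CPM in the knockout-labelled pair and at 156 and 155 CPM in the controls (0.65 ± 0.19 SE, edgeR adjusted p = 0.135 and 0.0297 in DESeq2). Cct6a, the zeta subunit, was at 159 and 161 CPM in the knockout-labelled pair and at 103 and 113 CPM in the controls (0.57 ± 0.16 SE, edgeR adjusted p = 0.130 and 0.0314 in DESeq2). The groups did not overlap for these 3 subunits, and for Cct8 the log2 change was 0.85 without knockout-labelled 1 and 0.49 without knockout-labelled 2. Cct2, the beta subunit and the most abundant per kb, had 253 and 307 CPM in the knockout-labelled pair and 234 and 214 CPM in the controls, a smaller distance (0.32 ± 0.19 SE, edgeR adjusted p = 0.366). Of the exon bases of Tcp1 and Cct6a, 14.2% and 12.5% overlap genes on the opposite strand (Acat3 and Mrpl18, and Psph). The strand setting of the counting is not given in the sources used here, so reads of these neighbours could be counted in either gene or left out.

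Per kb the highest of the 8 subunits was 2.12 to 2.98 times the lowest, depending on the library. In knockout-labelled 1 and 2 the lowest was Cct6a, at 64.8 and 65.7 CPM per kb, and the highest was Cct5 at 137 in the one and Cct2 at 157 in the other, ratios of 2.12 and 2.38. In controls 1 and 2 the lowest was again Cct6a, at 41.8 and 45.9 CPM per kb, and the highest was Cct5 at 124 and Cct2 at 109, ratios of 2.98 and 2.38. In the order of the mean levels per kb, Cct2 and Cct5 stood next to each other and differed by less than the spread between libraries, as did Cct4 and Cct7, while Cct6a was below Cct7 in every library. The 2 remaining genes of the class lay far below: Cct6b, a testis form of the zeta subunit, was at 0.158 and 0.271 CPM in the knockout-labelled pair and 0.279 and 0.163 CPM in the controls. Cct8l1 was at 0 and 0.203 CPM in the knockout-labelled pair and at 0.579 and 0.327 CPM in the controls.

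**Figure D3:**
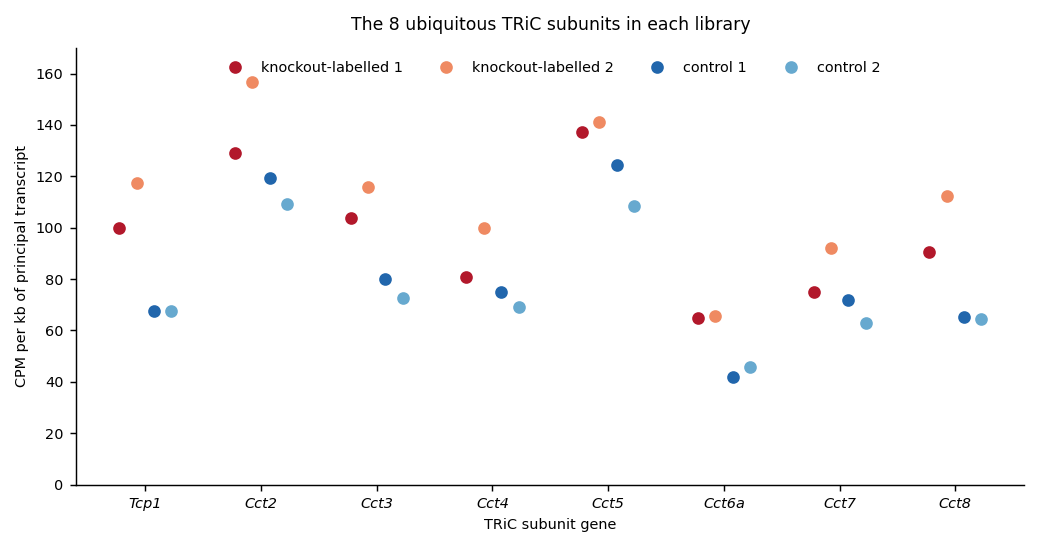
Level of the 8 ubiquitous TRiC subunit genes in each library, in TMM-scaled CPM per kb of the principal transcript, with the knockout-labelled libraries in red shades on the left of each gene and the controls in blue shades on the right. For every subunit both libraries labelled knockout lie above both controls on this scale (4 of 8 with library totals alone), and Cct6a is the lowest subunit in every library.

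Of the 16 members listed here as ER residents 9 were higher in both libraries labelled knockout, 0 were lower in both and 7 overlapped. The shares of protein-coding genes tested were 24.9% higher in both and 30.2% lower in both. The median log2 fold change of the 16 was 0.30 (0.15 without control 1 and 0.19 without knockout-labelled 2). The list was set by hand and may not hold every ER member. Dnajc14 and Dnajc16, lower in both, and Dnajc18 and Dnajc25, which overlapped, are not on it (log2 fold changes -0.23, -0.33, 0.00 and 0.30). With library totals alone 1 of the 16 was higher in both, Pdia3, 3 were lower in both, and the median was 0.05. No ER member passed in edgeR, and 2 of the 16 had an unadjusted p under 0.05, both higher, beside 11.8% of all genes higher by that rule. DESeq2 called 1 of the 16, higher, beside 5.58% of all genes, so these calls were near the shares of all genes. That gene was Pdia3 (chromosome 2, 121413775 to 121438687, forward strand), the isomerase ERp57 that works with calnexin and calreticulin. It was at 330 and 392 CPM in the knockout-labelled pair and at 224 and 255 CPM in the controls (log2 fold change 0.59 ± 0.20 SE, edgeR adjusted p = 0.160 and 0.0487 in DESeq2). Canx, calnexin, had 361 and 272 CPM in the knockout-labelled pair and 242 and 254 CPM in the controls. Calr, calreticulin, the most abundant ER member per kb, had 406 and 460 CPM in the knockout-labelled pair and 354 and 361 CPM in the controls. The lectins and Pdia3 were thus above both controls, though knockout-labelled 2 was close to the controls for Canx.

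P4hb, the archetypal disulfide isomerase, was at 338 and 507 CPM in the knockout-labelled pair and at 312 and 295 CPM in the controls (log2 fold change 0.48 ± 0.25 SE, edgeR adjusted p = 0.304), with most of the distance from knockout-labelled 2. Hsp90b1, GRP94, had 310 and 326 CPM in the knockout-labelled pair and 231 and 273 CPM in the controls (0.33 ± 0.19 SE, edgeR adjusted p = 0.342). Hspa5, BiP, had 543 and 660 CPM in the knockout-labelled pair and 415 and 546 CPM in the controls, and knockout-labelled 1 lay just below control 2. Dnajc10, the ER reductase ERdj5, was at 93.2 and 77.7 CPM in the knockout-labelled pair and at 50.9 and 65.0 CPM in the controls (0.56 ± 0.19 SE, edgeR adjusted p = 0.167). Pdia6 was higher in both by a log2 change of 0.16, while Pdia4, Dnajb9, Dnajb12, Dnajc1, Dnajc3 and Hspa13 overlapped.

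The unfolded protein response raises many of these genes through the ER stress element, the letters CCAAT, 9 bases and CCACG, on either strand. Among the 15 ER members with a promoter in the RefSeq table, 6 held this element (40.0%): Hspa5, Hsp90b1, Calr, Canx, Pdia6 and Dnajc3. Of the 58 members with a promoter that are not listed as ER residents 0 held it, and of all 27025 genes 0.137% did. The sequences of these 6 are shown because the element was found in ER members and in 0 of the others. CCAAT and CCACG are in capitals, with 15 bases on either side, 5′ to 3′ in the gene's direction, from RefSeq on GRCm38.p6. Where the element lies on the other strand they read CGTGG and ATTGG.
Hspa5, chr2:34772010-34772058, forward strand: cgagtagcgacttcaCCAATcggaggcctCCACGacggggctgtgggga
Hsp90b1, chr10:86705518-86705671, reverse strand: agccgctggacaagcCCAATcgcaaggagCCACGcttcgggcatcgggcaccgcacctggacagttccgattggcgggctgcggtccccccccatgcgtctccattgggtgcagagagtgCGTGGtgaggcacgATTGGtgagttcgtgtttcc
Calr, chr8:84847060-84847108, reverse strand: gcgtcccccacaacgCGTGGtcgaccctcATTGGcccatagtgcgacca
Canx, chr11:50325785-50325833, reverse strand: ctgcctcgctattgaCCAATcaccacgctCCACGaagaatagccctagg
Pdia6, chr12:17266476-17266524, forward strand: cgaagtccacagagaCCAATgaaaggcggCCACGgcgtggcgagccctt
Dnajc3, chr14:118937812-118937860, forward strand: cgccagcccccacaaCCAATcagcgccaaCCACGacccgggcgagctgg

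The elements end 47 bases before the RefSeq start in Hspa5, 80 in Pdia6, 87 in Dnajc3, 127 in Canx and 144 in Calr, and Hsp90b1 holds 2 of them, on opposite strands. The log2 fold changes of these genes were 0.32 for Hspa5, 0.33 for Hsp90b1, 0.28 for Calr, 0.35 for Canx, 0.16 for Pdia6 and 0.03 for Dnajc3. Pdia3 and P4hb, the ER members with the larger log2 changes among the abundant genes, had no such element in this window.

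The other genes of the unfolded protein response and of ER folding, a list of 31 that are not members, had a lower median than the members listed as ER residents. Of the 31, 8 were higher in both libraries labelled knockout and 10 were lower in both, with a median log2 fold change of -0.00, close to that of all genes. Of the protein-coding genes tested, 24.9% were higher in both and 30.2% were lower in both, so the list lay near those shares. At an unadjusted p under 0.05 in edgeR 1 was higher and 5 were lower, beside 11.8% and 11.2% of all genes. DESeq2 called 1 higher (Calu) and 2 lower, beside 5.58% and 4.43% of all genes. The 2 were Derl3 and Ern1. Ern1, the stress sensor IRE1 alpha, was at 13.7 and 12.6 CPM in the knockout-labelled pair and at 24.0 and 23.6 CPM in the controls (log2 fold change -0.85 ± 0.19 SE, edgeR adjusted p = 0.0948 and 0.00824 in DESeq2). Derl3, which helps carry misfolded proteins out of the ER, was at 0.248 and 0.0338 CPM in the knockout-labelled pair and at 1.93 and 1.33 CPM in the controls, a low level throughout. Edem2, of the same degradation route, was at 18.97 and 23.0 CPM in the knockout-labelled pair and at 33.2 and 33.9 CPM in the controls (-0.68 ± 0.18 SE, edgeR adjusted p = 0.120).

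Hyou1, an ER relative of HSP110 that the member rule does not take, also lay low. It was at 39.2 and 49.0 CPM in the knockout-labelled pair, against 59.3 and 69.9 CPM in the controls, a log2 fold change of -0.55 ± 0.19 (SE, edgeR adjusted p = 0.161). With trends in GC content and length removed it was -0.28, and that of Edem2 was -0.43. Xbp1, the transcription factor that IRE1 activates, overlapped, with 70.2 and 110 CPM in the knockout-labelled pair and 86.7 and 93.9 CPM in the controls. Ddit3, the stress-induced CHOP, overlapped as well, with 14.8 and 23.7 CPM in the knockout-labelled pair and 20.8 and 21.3 CPM in the controls. The response genes named here were picked by small p or after their values were seen, and their list as a whole lay near the median of all genes. The median of the ER residents was higher, and the difference between the lists was not tested.

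**Figure D4:**
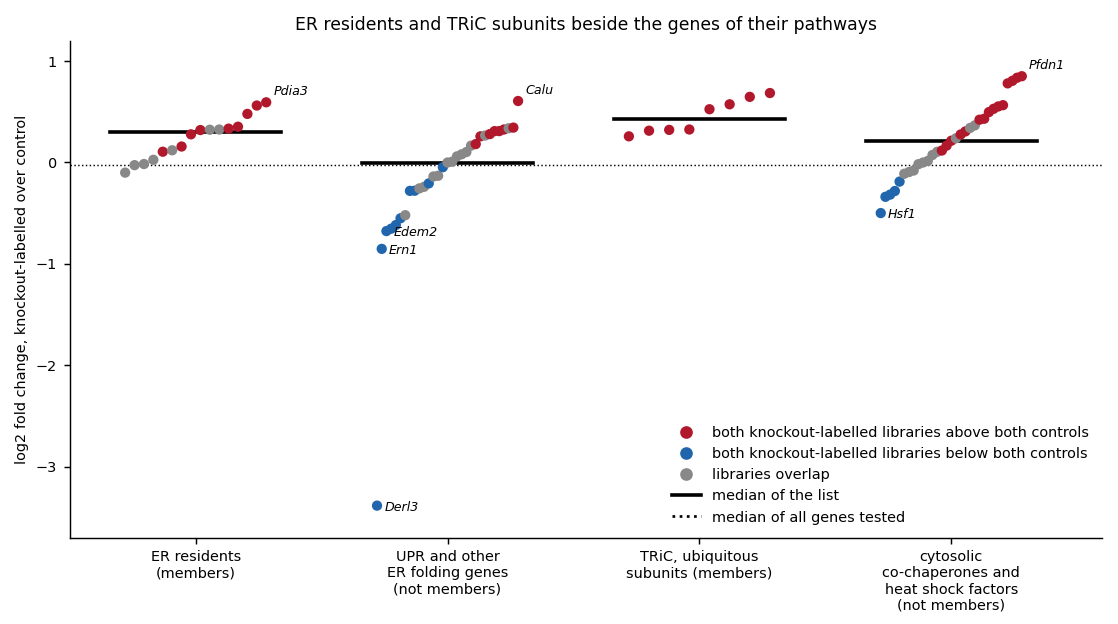
log2 fold change, knockout-labelled over control, of the 16 members listed as ER residents, of 31 other genes of the unfolded protein response (UPR) and ER folding, of the 8 ubiquitous TRiC subunits, and of 31 cytosolic co-chaperones and heat shock factors. Each point is a gene, black bars are list medians (0.30, -0.00, 0.42 and 0.21) and the dotted line is the median of all genes tested. All TRiC points are red, that is higher in both libraries labelled knockout with TMM (4 of 8 with library totals alone), while the UPR list holds 8 red and 10 blue points. Of all protein-coding genes tested, 24.9% were higher in both and 30.2% were lower in both.

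The cytosolic co-chaperones and heat shock factors, another list of 31, had a median log2 fold change of 0.21 (-0.03 with library totals alone, 0.11 without knockout-labelled 2 and 0.12 without control 2), with 15 higher in both libraries labelled knockout and 5 lower in both. Of the protein-coding genes tested, 24.9% were higher in both and 30.2% were lower in both. At an unadjusted p under 0.05 in edgeR 9 of the list were higher and 1 was lower, beside 11.8% and 11.2% of all genes. DESeq2 called 4 of the list higher (Cacybp, Pfdn1, Vbp1 and Stip1) and 0 lower, beside 5.58% and 4.43% of all genes. Prefoldin, which hands actin and tubulin to TRiC, had subunit genes among these 4. Its subunit gene Pfdn1 was at 86.6 and 128 CPM in the knockout-labelled pair and at 60.9 and 58.3 CPM in the controls (log2 fold change 0.85 ± 0.22 SE, edgeR adjusted p = 0.118 and 0.0185 in DESeq2). Its subunit gene Vbp1 was at 46.2 and 47.5 CPM in the knockout-labelled pair and at 22.2 and 32.3 CPM in the controls (0.78 ± 0.22 SE, edgeR adjusted p = 0.128 and 0.0369 in DESeq2). Pfdn2 and Pfdn4 were also higher in both, while Pfdn5 and Pfdn6 overlapped.

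Partners of HSP90 were mixed. Cacybp, the calcyclin-binding protein, was at 79.1 and 75.7 CPM in the knockout-labelled pair and at 40.3 and 46.5 CPM in the controls (log2 fold change 0.84 ± 0.16 SE, edgeR adjusted p = 0.0925 and 0.0021 in DESeq2). Stip1, which bridges HSP70 and HSP90, was at 137 and 130 CPM in the knockout-labelled pair and at 93.4 and 88.8 CPM in the controls (0.55 ± 0.16 SE, edgeR adjusted p = 0.132 and 0.0374 in DESeq2). Ahsa1, Cdc37 and Fkbp4, other HSP90 partners, had log2 changes of -0.00, 0.12 and 0.01. Of the same list, Ptges3 and Sugt1 were higher in both, with log2 changes of 0.50 and 0.43 (edgeR adjusted p = 0.152 and 0.186). Unc45a and Unc45b were lower in both, with log2 changes of -0.34 and -0.32 (edgeR adjusted p = 0.322 and 0.482). Hsf1, the factor that drives the heat shock genes, was at 30.7 and 31.4 CPM in the knockout-labelled pair and at 45.6 and 42.2 CPM in the controls, lower in both (-0.50 ± 0.15 SE, edgeR adjusted p = 0.142 and 0.139 in DESeq2), and at -0.20 with trends in GC content and length removed. The same correction put Pfdn1 at 0.56. Hsf2 was higher in both, by a log2 change of 0.28, or 0.19 with that correction.

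The small heat shock proteins hold unfolding clients without ATP, and several are abundant in muscle. Of the 8 genes 4 were higher in both libraries labelled knockout and 1 was lower in both, beside 24.9% and 30.2% of the protein-coding genes tested. The median log2 fold change of the 8 was 0.26 (0.01 with library totals alone and 0.46 without knockout-labelled 1). Hspb7, a heart and muscle gene and the most abundant of the class per kb, had 1554 and 1131 CPM in the knockout-labelled pair and 1270 and 1074 CPM in the controls, which overlap (log2 fold change 0.20 ± 0.27 SE, edgeR adjusted p = 0.700). Hspb1 had 218 and 335 CPM in the knockout-labelled pair and 239 and 225 CPM in the controls, which overlap as well. Of its transcript 68.2% has a near-identical match in another gene, and the part of this in its value was not tested. Hspb3, a muscle form, was at 22.8 and 17.2 CPM in the knockout-labelled pair and at 13.0 and 12.7 CPM in the controls (0.64 ± 0.22 SE, edgeR adjusted p = 0.169). With trends in GC content and length removed, the log2 change of Hspb3 was 0.31.

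Hspb6, whose protein is abundant in heart muscle, was at 79.3 and 139 CPM in the knockout-labelled pair and at 72.2 and 69.6 CPM in the controls, so that knockout-labelled 2 carried most of the distance. Hspb8, the partner of Bag3, had 55.2 and 66.2 CPM in the knockout-labelled pair and 47.2 and 53.8 CPM in the controls. Hspb11, which by its symbol is in this class although its product is a protein of the cilium, was at 8.37 and 14.7 CPM in the knockout-labelled pair and at 5.79 and 6.19 CPM in the controls. Hspb9, a testis gene, was near the lower limit of detection, at 0.180 and 0.203 CPM in the knockout-labelled pair and 0.472 and 0.409 CPM in the controls, and was the 1 member lower at an unadjusted p under 0.05. Cryab, the abundant cardiac small heat shock protein whose symbol the member rule does not take, was at 517 and 766 CPM in the knockout-labelled pair and at 471 and 419 CPM in the controls (0.53 ± 0.26 SE, edgeR adjusted p = 0.278). Its log2 change was 0.23 without knockout-labelled 2 and 0.84 without knockout-labelled 1.

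Of the 2 genes that share only the prefix, Hspbp1, an exchange factor of HSP70, was at 43.6 and 49.9 CPM in the knockout-labelled pair and at 37.1 and 30.8 CPM in the controls (0.46 ± 0.18 SE, edgeR adjusted p = 0.194). Hspbap1, named for binding HSPB1, had 3.61 and 7.51 CPM in the knockout-labelled pair and 7.23 and 8.26 CPM in the controls, which overlap.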

How the data were processed

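PolyA RNA of newborn mouse ventricles was sequenced in 4 libraries, 2 per group. The submitters' processing notes name bcl2fastq 2.16.0.10, FastQC 0.11.5, STAR 2.5.3a, HTSeq 0.6.1, DESeq2 1.18 and the GRCm38 build. The deposited files hold raw counts per gene, and a deposited table of the whole series holds the authors' log2 fold changes and p-values. The sources used here give no annotation release and no strand setting for the counting. Of that table's columns 15 were not used, among them 4 of normalized values per library. Rows that name no gene were left out of library sizes: reads at more than 1 place were 19.4% to 29.7% of all counted reads, reads in no gene 3.18% to 6.45% and ambiguous reads 3.90% to 4.85%.

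From the counts, edgeR 4.0.16 (filterByExpr, TMM, quasi-likelihood test, Benjamini-Hochberg adjustment over all 18157 genes tested, threshold 0.05, no covariate) gave the fold changes, and DESeq2 1.42.0 and limma 3.58.1 (voom) in R 4.3.3 gave alternatives. CPM is scaled by TMM. CPM per kb uses the principal transcript of GENCODE vM21, to which 53360 of the 53465 gene IDs matched. Near-identical copies were found with BLAST 2.17.0 (at least 95% identity over at least 100 bases). Promoters were RefSeq's, given for 73 of the 87 members, and 56 of the 91 member promoters had the 25 bases after their start in the gene's longest GENCODE transcript. Protein sequences were not used. The fits were tested on simulated counts.

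Members, classes and lists were chosen with earlier results of these data known, so their direction is not independent evidence. In each class values are given for the 3 members with the smallest edgeR p and for the most abundant per kb, and in each of the 2 pathway lists for the 3 with the smallest p. Genes named beyond these were chosen after their values were seen. Libraries of a group differed by more than counting error (chi-square per degree of freedom 119 between the knockout-labelled libraries and 50.2 between the controls). Floors and counts carry counting error only.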

Additional observations from a re-analysis of the deposited data

How the results depend on the processing

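Against 2 genes called with edgeR, the count was 554 with no filter on low counts, 18 with the replicate number as a block (replicate block), 0 with that block and GC content and length trends removed, 0 with limma-voom, 1706 with DESeq2, 760 with DESeq2 and the block, and 4176 at an unadjusted p under 0.05. It ranged from 0 to 30 when each library was left out in turn, and with DESeq2 it was 2454 without knockout-labelled 1, 1158 without knockout-labelled 2, 157 without control 1 and 521 without control 2. Members called were 0 with edgeR, limma-voom and edgeR with the replicate block, 8 with DESeq2, 15 and 6 with DESeq2 without knockout-labelled 1 or 2, 1 with DESeq2 and the block, and 17 at an unadjusted p under 0.05. The replicate numbers are only names: knockout-labelled 1 and control 1 deviated from their group means in opposite ways (r = -0.112 across 18157 genes, which are not independent), and with the numbers crossed edgeR called 941 genes and 1 member. The members' median of 0.23 was -0.018 with library totals alone, 0.30 with GC content and length trends removed and 0.29 with those and the block, and ranged from 0.17 to 0.34 when each library was left out. Members higher in both were 20 with library totals alone. Members lower in both were 20 with library totals, 6 with GC content and length trends removed, with or without the block, and 13 to 19 when each library was left out (19 without knockout-labelled 2). With a library left out fewer libraries have to be apart, so that rule is easier to meet and its counts are not directly comparable. The difference in the members' share was 0.0843 percentage points over nuclear genes. With library totals alone the log2 changes of Dnaja1 (-0.018), Dnajb11 (-0.13), Dnajc7 (-0.057), Hsp90ab1 (-0.24) and Hspb7 (-0.031) changed sign. Hspa8 changed sign with DESeq2's size factors (0.013), with GC content and length trends removed (0.015) and with DESeq2 (0.0034), and ranged from -0.47 to 0.38 with a library left out. Hsp90ab1 was -0.00094 with no filter and ranged from -0.15 to 0.18, Dnajc7 from -0.040 to 0.46 and Hspbap1 from -1.09 to 0.0076. Of the values of 38 named genes under 12 of these alternatives, 15 changed sign, 14 passed a test that the edgeR value did not, and 427 did neither. The causes were not tested. Alternatives with DESeq2 on fewer libraries, its block, the crossed numbers and the nuclear total were chosen after seeing the data.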
